A study of Mus musculus with 6 samples.

Results

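Plasmacytoid dendritic cells carry B220, the isoform of CD45 that is also used to sort B-lineage cells, and their genes were followed here on arrays of B220+CD43+ cells sorted from mouse bone marrow. The members were 7 genes known to mark these cells, Siglech, Tcf4, Pacsin1, Tlr7, Tlr9, Bst2 and Runx2, and all probes whose platform gene symbol is one of them were taken. Of the 45281 probes on the array, 14 were named for 6 of the 7 genes, and no probe was named for Runx2. The study compared RNA labelled Fnip 1 -/- (here Fnip1-null) with RNA labelled wild type (WT), on 3 arrays each. Fnip1 encodes folliculin-interacting protein 1, which acts with folliculin and the energy sensor AMPK. The labels describe both groups as pre-B cells and give no age, strain, sex or treatment, and the change made to the Fnip1 gene is not stated there. The scanner columns of the Fnip1-null group are headed LPAB - Yugioh KO, and those of the WT group carry no such words. Each group has 3 samples by the design text, with no word on pooling, so a p-value here covers the spread among samples, whatever their source.

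Plasmacytoid dendritic cells are the main source of type I interferon in response to viral nucleic acid. They sense RNA through TLR7 and DNA through TLR9 in endosomes, and the E protein TCF4 (E2-2) sets and keeps their identity, with ID proteins as its antagonists. SIGLEC-H is a sialic-acid-binding-type receptor of mouse plasmacytoid dendritic cells that signals through the adaptor DAP12, and BST2 (tetherin) is a surface protein that is also induced by interferon in many cell types.

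The promoters of Siglech and Bst2 are shown because these genes stand for the 2 features followed below, the marker closest to the cell type and the marker that interferon also induces. Both are RefSeq windows of the build GRCm38.p6 and run from 250 bases before a start site to 50 after it, on the gene's strand. For Bst2 and Tlr9 this site is the start of the gene in the RefSeq gene table, while for Siglech, Runx2 and Pacsin1 it lies 30, 170 and 29648 bases downstream of it. The Siglech window lies on the plus strand at chr7:55767934-55768233, and capitals mark the E-box CANNTG, the class of site that TCF4 binds. The Bst2 window lies on the minus strand at chr8:71537423-71537722, and capitals mark 2 GAAA half-sites with 2 bases between them, a form of the site that interferon regulatory factors bind.
Siglech: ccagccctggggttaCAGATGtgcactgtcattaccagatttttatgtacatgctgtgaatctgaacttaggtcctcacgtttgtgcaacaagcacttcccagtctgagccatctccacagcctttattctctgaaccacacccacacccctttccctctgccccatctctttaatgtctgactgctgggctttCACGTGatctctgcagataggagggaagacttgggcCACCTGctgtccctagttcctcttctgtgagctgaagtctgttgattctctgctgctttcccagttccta
Bst2: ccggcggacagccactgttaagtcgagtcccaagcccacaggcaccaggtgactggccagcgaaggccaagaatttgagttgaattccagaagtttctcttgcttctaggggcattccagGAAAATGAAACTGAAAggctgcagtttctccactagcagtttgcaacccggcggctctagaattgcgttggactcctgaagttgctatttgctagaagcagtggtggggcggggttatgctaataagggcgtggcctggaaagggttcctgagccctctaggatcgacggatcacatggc
Both motifs were searched on both strands. The Siglech window held 3 E-boxes, and 72.3% of 32851 RefSeq promoter windows of this length held at least 1. The Bst2 window held 2 overlapping matches to the GAAA pair, which share a half-site and make up 1 run of capitals, and 3.44% of the windows held a match. The windows of Tlr9, Runx2 and Bst2 held 4, 2 and 2 E-boxes and that of Pacsin1 none, so the E-box did not set the Siglech window apart from that of Bst2. The GAAA pair was in none of the windows of Siglech, Tlr9, Runx2 and Pacsin1. Windows of Tcf4 and Tlr7 were not searched. A match describes letters only, and binding was not measured.

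Each array reported between 17442 and 18294 probes detected at a p under 0.05, and the lowest detected signal lay between 46.2 and 50.7. Values below are normalized signals on a log2 scale with an offset of 16, so fold changes of dim probes are understated. The targeted gene goes against the labels: Fnip1 averaged 10.01 on the arrays labelled Fnip1-null and 9.06 on those labelled WT (limma adjusted p = 0.000665), although where its probes lie relative to the change in the gene is not stated. Every direction below is therefore that of the arrays as labelled. Letters A, B and C name a group's arrays, following the columns of the scanner table. Array A of each group lacked Xist RNA, and arrays B and C of each group held it. Of 9679 tested genes 13.1% were called at a limma adjusted p under 0.05.

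RNA of 5 of the 7 members was detected on every array of both labels, and no member passed the test for a difference. Tcf4, Bst2 and Tlr7 are also expressed by B-lineage and other cells, and the cells the RNA came from were not tested. Siglech, Tcf4, Pacsin1, Tlr7 and Bst2 had a probe detected on all 6 arrays, with fold changes between 0.954 and 1.24, and 0 of these 5 genes passed the test (13.1% of all tested genes did). Their 95% intervals, given gene by gene below, lay within 0.638- to 1.71-fold, and a change inside a gene's own interval could not be told from none with 3 arrays a group. By probe, 8 of the 14 met the filter of detection on at least 3 arrays, and 0 of the 8 were called, where 14.2% of all tested probes were, and 0 had an unadjusted limma p under 0.05. The 2 groups of arrays overlapped for each of these 8 probes, while they did not for 33.8% of all tested probes. In RNA from a whole sort, fewer cells of a type and less RNA per cell cannot be told apart.

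Siglech was bright in every sample. Its brightest probe had scanner signals of 7669, 6023 and 6079 on the arrays labelled Fnip1-null and 8033, 7350 and 5210 on those labelled WT. On the log2 scale it stood at 13.02, 12.48 and 12.59 against 12.84, 12.79 and 12.42. Array A labelled Fnip1-null was the highest and array C labelled WT the lowest, and the means were 12.70 ± 0.28 (SD, n = 3) and 12.68 ± 0.23 (SD, n = 3). The fold change was 1.01 (95% interval 0.777 to 1.31, limma adjusted p = 0.970), and p was 1 in the exact permutation test (two-sided), where 3 arrays against 3 allow no p below 0.1. A second Siglech probe gave a fold of 0.938 (0.70 to 1.26), and the third, annotated to the same transcript, was not detected on any array.

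Tcf4, the E protein gene, was bright on all 6 arrays. Its detected probe stood at 12.74, 12.42 and 12.42 on the arrays labelled Fnip1-null and at 12.54, 12.49 and 12.30 on those labelled WT. The same arrays as for Siglech were highest and lowest. The fold change was 1.06 (95% interval 0.871 to 1.29, limma adjusted p = 0.709). The other 2 Tcf4 probes, annotated to other transcripts, were not detected on any array.

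Pacsin1, an endocytic adaptor gene that in mouse plasmacytoid dendritic cells is needed for a full interferon response to TLR7 and TLR9 ligands, had 3 tested probes. The brightest stood at 11.23, 11.04 and 10.89 on the arrays labelled Fnip1-null and at 10.97, 11.35 and 10.82 on those labelled WT. Array B labelled WT was highest, and the spread within each group covered the other's mean. The fold changes of the 3 probes were 1.00 (95% interval 0.787 to 1.28), 1.01 (0.823 to 1.24) and 0.923 (0.74 to 1.15), with limma adjusted p = 0.992, 0.961 and 0.644. The other Pacsin1 probe was detected on 1 array, labelled WT, and was not tested.

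The receptor gene Tlr7 lies on the X chromosome and had the largest difference of the 5 tested members. It stood at 9.22, 9.03 and 8.77 on the arrays labelled Fnip1-null and at 8.60, 9.17 and 8.33 on those labelled WT. Array B labelled WT lay among the arrays labelled Fnip1-null, and the other 2 WT arrays below all of them. The fold change was 1.24 (95% interval 0.893 to 1.71, limma adjusted p = 0.381, exact permutation p = 0.3), so a rise of up to 1.71-fold was within the interval. The difference was 0.14 on the log2 scale over the arrays with Xist RNA and 0.63 between the single arrays without it, and the difference of these differences did not pass (limma adjusted p = 0.850, a test chosen after the data were seen).

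The DNA receptor gene Tlr9 was near background. Its brighter probe had scanner signals of 42.7, 47.0 and 44.9 on the arrays labelled Fnip1-null and 51.7, 53.6 and 44.6 on those labelled WT, and it was detected on 2 of the WT arrays and none of the others. It did not meet the filter. Fitted with no filter, it stood at -0.24 (SE 0.089, limma adjusted p = 0.255), and the exact permutation test gave p = 0.1, the smallest possible. The other Tlr9 probe was not detected on any array. A level of Tlr9 could thus not be compared at this signal.

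Bst2 varied most between arrays of one group. Its probe stood at 10.36, 10.85 and 10.51 on the arrays labelled Fnip1-null and at 11.00, 10.94 and 9.97 on those labelled WT. The highest and the lowest array were both labelled WT, with an SD of 0.58 in that group. The fold change was 0.954 (95% interval 0.638 to 1.43, limma adjusted p = 0.901). Without array C labelled WT the log2 difference was -0.40 (adjusted p = 0.154), against -0.07 with all arrays. It was 0.22 over the arrays with Xist RNA and -0.64 between the arrays without it, and the difference of these did not pass (limma adjusted p = 0.755).

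**Figure D1:**
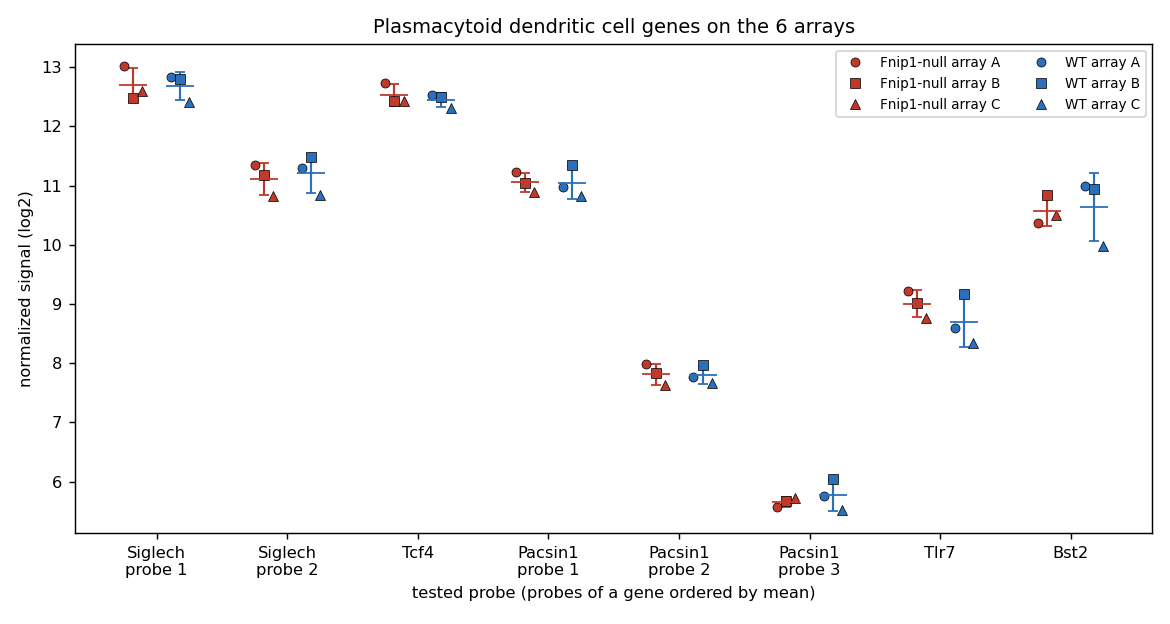
Normalized signal (log2, vertical axis) of the 8 tested probes of the members on each array, in red for arrays labelled Fnip1-null and blue for WT, with horizontal marks at the group mean and bars of 1 SD (n = 3). The groups overlap for every probe, and the widest spread is that of Bst2 on the WT arrays.

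The members varied from array to array within each group. The standard error of the fitted difference was above the median of all tested genes (0.124) for 5 of the 5 tested members. This was not particular to them among the lists followed below. It held for 17 of 20 other genes of plasmacytoid dendritic cells and 13 of 16 interferon-stimulated genes. It also held for 8 of 8 monocyte and macrophage markers and 6 of 6 other Toll-like receptor genes, but for 7 of 18 genes of endosomal traffic and signalling. Array C labelled WT was the lowest of the 6 arrays for 5 of 5 members and 13 of the 20 other genes of plasmacytoid dendritic cells. It was the lowest for 19.1% of all tested genes. Over the 6 arrays, Pearson's r was 0.94 between Siglech and Tcf4, 0.88 between Tlr7 and Pacsin1, and between 0.23 and 0.46 for Bst2 with the other 4. These are descriptions over 6 arrays that share normalization, with no test.

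By the fixed rule, the 3 tested genes most like each member over the 6 arrays were taken by Pearson's r, out of 9679 genes, so that high values arise in any case. For Siglech they were Ngp (0.997), Lcn2 (0.996) and S100a9 (0.995), which encode neutrophil granule or cytosolic proteins. Ngp stood at 11.48, 9.31 and 9.83 on the arrays labelled Fnip1-null and at 10.73, 10.54 and 9.23 on those labelled WT. The most and the least bright array were thus the same as for Siglech, over a range several times as wide. For Tcf4 they were Get1, Plekhg4 and S100a8, a further neutrophil gene (0.991, 0.986 and 0.986). For Pacsin1 they were Gpr85, Rnd3 and Haao (0.992 each), for Tlr7 Rasgrf1, Dst and Smyd1 (0.993, 0.990 and 0.983), and for Bst2 Tmem70, Tlcd2 and Mep1b (0.994, 0.985 and 0.976). The part of other cells in the spread of Siglech and Tcf4 was not tested.

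A wider list of 25 other genes of plasmacytoid dendritic cells was followed beside the members, and most of it did not pass either. Of these genes, 22 had a probe and 20 were tested, of which 2 were higher, 1 was lower and 17 did not pass, against 7.86% higher and 5.25% lower of all tested genes. The median log2 fold change was 0.06, and that of all tested genes was 0.01. The genes of highest signal without a call were Mpeg1, a perforin-like gene (-0.08), Cox6a2, a cytochrome oxidase subunit gene (0.18), Ly6d (-0.16) and Irf8, a transcription factor gene of dendritic and B-lineage development (0.07). The other tested probe of Mpeg1 stood at 0.60 (limma adjusted p = 0.0646) and that of Ly6d at -0.12, also without a call. The chemokine receptor gene Ccr9 and the cytokine receptor gene Flt3, both of which mark plasmacytoid dendritic cells, were not detected on any array. Siglech and Tcf4 also had undetected probes beside bright ones, so absent RNA and a probe that misses it cannot be told apart.

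The 3 genes called in this list are all used by other cells too. Plac8 stood at 13.06, 13.34 and 13.13 on the arrays labelled Fnip1-null and at 12.70, 12.85 and 12.54 on those labelled WT, a rise of 1.39-fold (95% interval 1.14 to 1.69, limma adjusted p = 0.0350). Ptprs, a receptor phosphatase gene, rose 1.52-fold by its brightest probe (1.16 to 1.99, adjusted p = 0.0469), whereas its other tested probes stood at 0.47, which was called, and -0.31, which was not. Cbfa2t3, a corepressor gene that opposes Id2 in mouse plasmacytoid dendritic cells, fell by 0.43 on the log2 scale (SE 0.11, limma adjusted p = 0.0294) and its other probe by 0.55. These calls depend on which arrays are fitted and on the processing. That of Plac8 was lost in 4 of 6 fits with 1 array left out (arrays B and C labelled Fnip1-null, arrays A and C labelled WT), that of Ptprs in 5 of 6 (all but array B labelled WT), and that of Cbfa2t3 in 4 of 6 (arrays B and C of either group). Over the arrays with Xist RNA, and with the authors' processed values with or without a replicate block, the limma adjusted p ran from 0.0546 to 0.103 for Cbfa2t3, from 0.0728 to 0.0858 for Plac8 and from 0.101 to 0.249 for Ptprs. Plac8 also lost its call with median scaling (adjusted p = 0.110) and no detection filter (0.0771), and Ptprs with no filter (0.164), array weights (0.0985) and a sex block (0.0526).

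**Figure D2:**
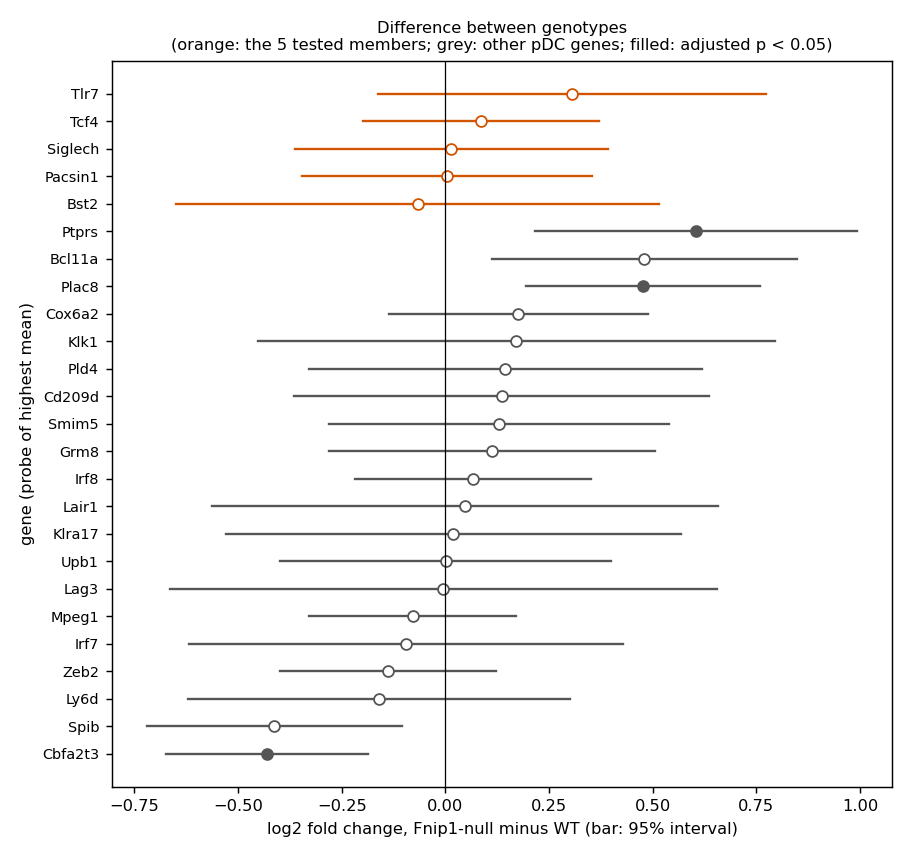
Log2 fold change (horizontal axis, Fnip1-null minus WT) with its 95% interval for the 5 tested members in orange and the 20 other genes of plasmacytoid dendritic cells in grey, filled where the limma adjusted p was under 0.05. All 5 members' intervals include 0, and 3 of the other genes are filled.

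Among the relatives and antagonists of TCF4, 1 of 5 tested genes was called and it fell (5.25% of all tested genes did). The median log2 fold change was -0.27, with all 5 below 0. Id2, which encodes an inhibitor of E proteins and is low in plasmacytoid against conventional dendritic cells, stood at 7.39, 7.22 and 7.51 on the arrays labelled Fnip1-null and at 8.54, 8.17 and 8.30 on those labelled WT. No array of one group reached the other. The fold change was 0.512 (95% interval 0.417 to 0.629, limma adjusted p = 0.00171), and the other tested probe fell by 1.02 on the log2 scale. Id2 is also a gene of natural killer cells, and most tested markers of these cells had a lower mean on the arrays labelled Fnip1-null. Of 8 tested markers 7 had a difference below 0, with a median log2 fold change of -0.50. Array A labelled WT was the highest for 7 of the 8, where it was the highest for 16.8% of all tested genes. The markers' median deviation from their 6-array means was 0.66, 0.06 and -0.05 on arrays A, B and C labelled WT. On those labelled Fnip1-null it was -0.33, -0.05 and -0.37. By limma 1 of the 8 markers fell and 4 had an unadjusted p under 0.05 (27.3% of all tested genes did). For 3 of them the groups did not overlap (33.0% of all tested genes). The one that fell was Eomes, a transcription factor gene, by 0.86 on the log2 scale, and it was detected on 2 of 3 arrays labelled Fnip1-null. Its call was lost without array A labelled Fnip1-null (limma adjusted p = 0.0645), with no detection filter (0.111), with the authors' values and a replicate block (0.114) and over the arrays with Xist RNA (0.0729). Ncr1, Gzmb and Itga2 of that list were not detected on any array, and the summed level of these markers was 3570 to 4969 on the arrays labelled Fnip1-null and 4385 to 6367 on those labelled WT. Their part in the difference of Id2 was not tested.

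In the pathway of TLR7 and TLR9, 18 genes of endosomal traffic and signalling were tested, of which 1 rose, 1 fell and 16 did not pass, with a median log2 fold change of -0.0003. Of all tested genes 7.86% were called higher and 5.25% lower. Lgmn, the asparagine endopeptidase gene whose product cleaves TLR9 in mouse endosomes, stood at 11.34, 11.39 and 11.79 on the arrays labelled Fnip1-null and at 9.66, 9.82 and 9.73 on those labelled WT. This rise of 3.40-fold (95% interval 2.75 to 4.22, limma adjusted p = 6.35e-05) separated the groups fully. Nfkbia, the inhibitor of NF-kappa-B that is itself induced by that factor, fell to a fold of 0.464 (0.393 to 0.548, adjusted p = 0.000233), and its other probe fell by 1.06 on the log2 scale. Both genes are used widely outside plasmacytoid dendritic cells. Of 6 other Toll-like receptor genes tested 1 rose, Tlr4, the receptor gene for endotoxin, 1.48-fold by its brightest probe (limma adjusted p = 0.0412), and its other tested probe stood at 0.23 without a call. The call of Tlr4 was lost in 4 of 6 fits with 1 array left out (arrays A and B labelled Fnip1-null, arrays B and C labelled WT). It was also lost with an offset of 50 (limma adjusted p = 0.0563, at a log2 difference of 0.34 against 0.56), with no detection filter (0.135) and with the authors' processed values (0.0726).

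Of the siglec relatives of Siglech and their adaptors 6 genes were tested, of which 2 fell, both inhibitory receptor genes of B cells, and 4 did not pass, with a median log2 fold change of -0.36. Of all tested genes 5.25% were called lower. Siglecg stood at 9.48, 9.56 and 9.65 on the arrays labelled Fnip1-null and at 10.61, 10.78 and 10.87 on those labelled WT, a fold of 0.438 (95% interval 0.368 to 0.522, limma adjusted p = 0.000205). Cd22 fell to a fold of 0.28 (0.233 to 0.335, adjusted p = 1.73e-05). By limma 0 of the 4 tested relatives of Runx2 and Pacsin1 passed (0 at an unadjusted p under 0.05). The shares of all tested genes were 13.1% and 27.3%. Runx3 was not detected on any array.

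Bst2 was set beside the other interferon-stimulated genes. Of 16 tested genes, Bst2 included, 1 rose (7.86% of all tested genes did) and 15 did not pass, with a median log2 fold change of -0.02. The gene that rose was Stat2, a mediator of interferon signalling, by 1.59-fold (95% interval 1.23 to 2.06, limma adjusted p = 0.0265). Its call was lost without array A labelled Fnip1-null, array A labelled WT or array C labelled WT, and also with no detection filter (limma adjusted p = 0.105), with the authors' processed values (0.0617, and 0.0776 with a replicate block) and over the arrays with Xist RNA (0.0941). Array B labelled WT was the highest for 12 of the 16 genes and array C labelled WT the lowest for 10, where these arrays were highest for 11.7% and lowest for 19.1% of all tested genes. The low Bst2 value on array C labelled WT stood among these, while its highest value was on array A labelled WT. Array C labelled WT was also the lowest for all 5 tested members and for 13 of the 20 other genes of plasmacytoid dendritic cells. In the list of type I interferons and their receptors, 11 of the 14 genes with a probe were not detected on any array, the receptor gene Ifnar1 among them. The 2 tested were the interferon gene Ifna6, at a low signal (5.06 to 5.38), and the receptor gene Ifnar2, both detected on all 6 arrays. By limma 0 of these 2 were called (13.1% of all tested genes were). None had an unadjusted limma p under 0.05 (27.3% of all tested genes did).

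**Figure D3:**
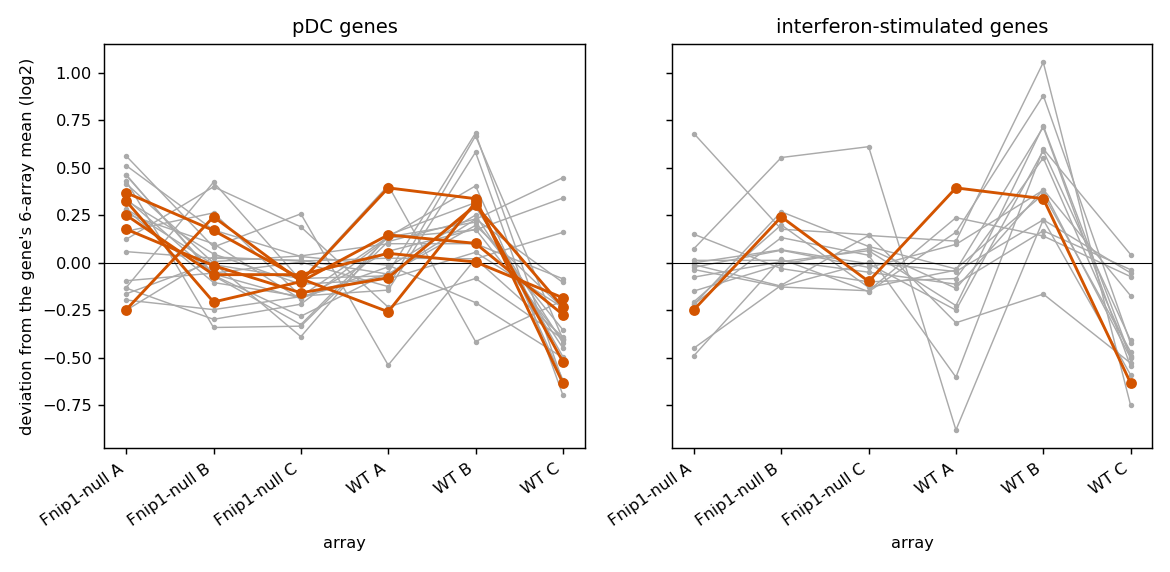
Deviation of each gene from its own 6-array mean (log2, vertical axis) on each array, with lines joining a gene's values, for the genes of plasmacytoid dendritic cells (left, the 5 tested members in orange) and the interferon-stimulated genes (right, Bst2 in orange). All 5 members are lowest on array C labelled WT, and 12 of 16 interferon-stimulated genes are highest on array B labelled WT.

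The labelled cell type was checked against its markers. Ptprc and Spn, the genes of B220 and CD43, were detected on all 6 arrays and did not pass (0.31 and 0.05 on the log2 scale, limma adjusted p = 0.104 and 0.894). The other tested probe of Ptprc stood at -0.07 and those of Spn at 0.21 and 0.23, also without a call. Of 13 tested early B-lineage genes 5 fell and none rose, Rag1, Vpreb3, Rag2, Ebf1 and Cd79b, by 2.06, 0.92, 0.69, 0.52 and 0.49 on the log2 scale, and Pax5 was not detected on any array. The median of the 13 was 0.05, while 6 of the 13 stood below 0. Of all tested genes 5.25% were called lower. Rag2 lost its call over the arrays with Xist RNA (limma adjusted p = 0.0677) and with the authors' values and a replicate block (0.0623), and its difference ranged from -1.10 with the authors' values to -0.40 with an offset of 50. Vpreb3 lost its call with that block (0.0665), Ebf1 with it (0.0891) and over the arrays with Xist RNA (0.0508), and Cd79b under both (0.0853 and 0.125), with the authors' values alone (0.0654) and with no detection filter (0.0673). The summed level of the 13 genes, a sum over probes of unlike brightness that serves only to compare arrays, was 35242 to 42538 on the arrays labelled Fnip1-null and 40334 to 47576 on those labelled WT. Of 6 tested conventional dendritic cell markers 0 were called by limma (0 at an unadjusted p under 0.05). The shares of all tested genes were 13.1% and 27.3%. Xcr1 and Zbtb46 were not detected on any array. Of 8 tested monocyte and macrophage markers 1 fell, the chemokine receptor gene Ccr2, by 0.60 on the log2 scale. All 8 had a difference below 0, with a median of -0.31, and 3 had an unadjusted limma p under 0.05 (27.3% of all tested genes did). Array B labelled WT was the highest for 6 of these 8 (11.7% of all tested genes). Array C labelled Fnip1-null was the lowest for 7 of them (12.8% of all tested genes). Their median deviation from the 6-array mean was 0.06, 0.45 and 0.01 on WT arrays A, B and C. It was 0.05, -0.19 and -0.43 on those labelled Fnip1-null. Ccr2 lost its call with no detection filter (adjusted p = 0.0751) and with the authors' values without and with a replicate block (0.0513 and 0.0703). Of 4 plasma cell markers 0 were called by limma (13.1% of all tested genes were). Among the 4, 2 had an unadjusted limma p under 0.05 (27.3% of all tested genes did), and the median log2 fold change was -0.25. The part of these cells in the differences above was not tested. With 1 array left out, Ebf1 lost its call without array C labelled Fnip1-null, Cd79b without array A or C labelled WT and without those lettered A or B among the arrays labelled Fnip1-null, and Ccr2 without array B or C of either group.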

How the data were processed

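Total RNA of 6 samples was measured on single-colour Illumina BeadChips. Per the file headers, the deposited scanner table holds a non-normalized signal intensity and a detection p-value per probe and array. The authors also deposited processed values, taken here as log2 from their range. How these were corrected for background, and their log base, are not stated, and affy is named in the submitters' processing notes, with no version. Scanner columns carry the genotype and no replicate number. By rank order, each column of the authors' values matched a scanner column of its own group (Spearman's rho of 1).

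Intensities were background-corrected by normexp from the detection p-values (offset 16), quantile normalized and put on a log2 scale (limma 3.58.1, R 4.3.3). Probes were kept where 3 or more of the 6 arrays had a detection p under 0.05, and these 18172 were fitted with lmFit and eBayes, with Benjamini-Hochberg adjustment over all of them. A call is an adjusted p under 0.05. A gene is represented by its tested probe of highest mean. Probes were named through the platform annotation, updated through a RefSeq table (GRCm38.p6), and 34885 of 45281 had 1 symbol. Summed levels are sums of 2 to the normalized value less the offset. The fit was tested on simulated arrays.

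Named genes were the members, the called genes of each list (up to 6 by p), up to 4 uncalled ones by mean, checks of the labels and the 3 genes most like each member. The members and lists were chosen with earlier results of these data known. Alternatives covered background, normalization, filter, variance model, array weights, the authors' values, sex and each array left out. Precision is limited by having only 3 arrays a group.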

Additional observations from a re-analysis of the deposited data

How the results depend on the processing

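No member probe passed the threshold under any of the alternatives, with 145 values of 8 probes and a lowest limma adjusted p = 0.0819 (Tlr7). Signs of these small differences did turn. Over the arrays with Xist RNA, Bst2 stood at 0.22, Pacsin1 by its second and its brightest probe at -0.087 and -0.12, Siglech by its brightest probe at -0.068, and Mpeg1 at 0.013. With array weights the same probes of Pacsin1 and Siglech stood at -0.066, -0.12 and -0.096, and Irf8 and Spn at -0.0075 and -0.0063. With median scaling Pacsin1 and Siglech stood at -0.0034 and -0.050. By the probe of largest variance Siglech stood at -0.093 and Mpeg1 at 0.60. With 1 array left out the log2 differences ran from -0.40 to 0.11 for Bst2, from -0.069 to 0.11, -0.11 to 0.16 and -0.24 to 0.021 for the 3 probes of Pacsin1 (the second, the brightest and the dimmest), from -0.15 to 0.12 and -0.27 to 0.056 for the brighter and the dimmer of Siglech, from -0.017 to 0.14 for Tcf4, from 0.12 to 0.54 for Tlr7, from -0.038 to 0.18 for Irf8 and from -0.11 to 0.20 for Spn. The cause of these turns was not tested.

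Of all tested probes 1400 were higher and 1183 lower. With the authors' processed values and a replicate block the counts were 728 and 669 (1032 and 903 without the block). The block was fitted to these values only. Over the arrays with Xist RNA the counts were 794 and 757, and with 1 array left out between 834 and 1031 and between 728 and 940. Deviations of same-numbered samples of the 2 groups had correlations of 0.17, -0.003 and 0.23. With no reference for such values, they cannot tell whether the numbers pair the samples. Of the other genes of plasmacytoid dendritic cells, 2 were called higher and 1 lower. Higher calls were 1 with median scaling or array weights and 0 with no detection filter, with the authors' values with or without the block, and over the arrays with Xist RNA. Lower calls were 2 with trend and robust fitting or array weights, 0 with the authors' values with or without the block, and 3 by the probe of largest variance. With 1 array left out, higher and lower calls each ran between 0 and 2. Id2, Lgmn, Nfkbia, Cd22, Siglecg, Rag1 and Fnip1 kept their calls under all alternatives run.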
